A study of Mus musculus with 8 samples.

Results

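The genes described here are 8 mouse genes that detect RNA or DNA in the cytosol and relay that signal: Ddx58, Ifih1, Dhx58, Mavs, Mb21d1, Tmem173, Tbk1 and Ikbke. They were taken by name, each matched to 1 row of the count table through its Ensembl gene in GENCODE M21 (where Mb21d1 is listed as Cgas), and make up 8 of the 49315 genes in the table. The cells were bone marrow-derived macrophages (BMDMs), primary macrophages grown from the femur and tibia marrow of C57BL/6 mice in 10 ng/ml macrophage colony-stimulating factor; the labels give no age. All cells received 25 nM of a gapmeR, an antisense oligonucleotide with a DNA core through which RNase H cuts the RNA it pairs with, delivered with a lipid transfection reagent. In 4 libraries (replicates 2, 5, 6 and 7) the gapmeR was negative control #1, and in 4 (replicates 9, 11, 13 and 15) it was directed at MAARS, a macrophage long non-coding RNA. Every library thus came from cells that had received a lipid-delivered nucleic acid. An effect of the MAARS gapmeR other than the loss of MAARS cannot be told apart from that loss with these groups. Neither group was left untransfected, so the level of a gene without a gapmeR is not known. Below, fell and rose mean lower and higher than with control gapmeR. The labels do not say whether the libraries of a group came from separate mice or cultures, so the p-values measure the spread between these libraries, which may be technical.

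Cytosolic nucleic acid sensing runs along an RNA arm and a DNA arm that meet at a pair of kinases. In the RNA arm, the helicases RIG-I (Ddx58) and MDA5 (Ifih1) bind viral RNA and signal through the mitochondrial adaptor MAVS, while the related helicase LGP2 (Dhx58) lacks their signalling domains and modulates them. In the DNA arm, cGAS (Mb21d1) binds DNA and makes the second messenger cGAMP, which activates STING (Tmem173) at the endoplasmic reticulum. Both arms activate TBK1 (Tbk1) and its relative IKKε (Ikbke), which phosphorylate IRF3 and IRF7 to induce type I interferon, and several sensor genes are themselves interferon-inducible in macrophages.

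Between 19287279 and 20567123 counts fell on genes per control library and between 20839671 and 24541205 per MAARS gapmeR library, so the MAARS gapmeR libraries were each the deeper. The targeted RNA, MAARS (Gm14461), had between 12.2 and 15.1 CPM in the control libraries and between 5.85 and 7.71 CPM in the MAARS gapmeR libraries, a decrease by 48.1% (adjusted p = 5.8e-05, edgeR). Levels are given in CPM, a gene's count relative to the library's total after scaling by TMM factors, and n = 4 libraries per group throughout. The libraries held macrophage RNA by their markers: all 8 macrophage markers listed were measured, led by Lyz2 (9402 and 13170 CPM in the control and MAARS gapmeR means), with Adgre1 at 1296 and 1332 CPM. These markers moved in both directions, 5 being called higher and 2 lower, and of the lower ones Fcgr1, a high-affinity Fc receptor gene, had a log2 fold change of -2.09 and Cd68 of -0.34. Neutrophil-type markers summed to between 101.3 and 299 CPM in the control libraries and between 105 and 168 CPM in the MAARS gapmeR libraries, and fibroblast markers, nearly all of it Col1a1 and Col1a2, to between 440.4 and 1010 and between 694 and 1200 CPM, with none of the 12 tested called; without control replicate 7, Col1a1 and Col1a2 were called higher (log2 fold change of Col1a1 0.61, log2 fold change of Col1a2 0.55, adjusted p = 0.0267 and 0.0486, edgeR). Whether these markers came from such cells, and the part of any such cells in the results below, was not tested. T-cell, B-cell, dendritic, erythroid and mast-cell markers each summed to less than 3 CPM in every library, with Cd3g, Mcpt4 and Fcer1a at 0.

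With MAARS gapmeR, 6 of the 8 sensor genes were called lower, which here means an adjusted p below 0.05 in edgeR's quasi-likelihood test, and Tmem173 and Tbk1 were not called. Of all 13051 genes tested, 45.4% were called, 24.0% as lower and 21.3% as higher. All 8 sensor genes passed the filter on low counts. The RNA helicase genes Ddx58, Dhx58 and Ifih1 fell the farthest and were the 3 sensor genes past a log2 fold change of -1, a size of decrease that 3.14% of all genes tested reached with a call. The median log2 fold change of the 8 genes was -0.75, against 0.01 over all genes tested. In 5 of the 8 genes every MAARS gapmeR library lay below every control library; the groups did not overlap, in either direction, for 42.1% of all genes tested. Scaling by the upper quartile instead of TMM raised the higher share of all called genes from 47.0% to 60.4%, and left 5 sensor genes called lower, without Mavs. In bulk RNA, fewer cells carrying a transcript and less of it per cell cannot be told apart.

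**Figure D1:**
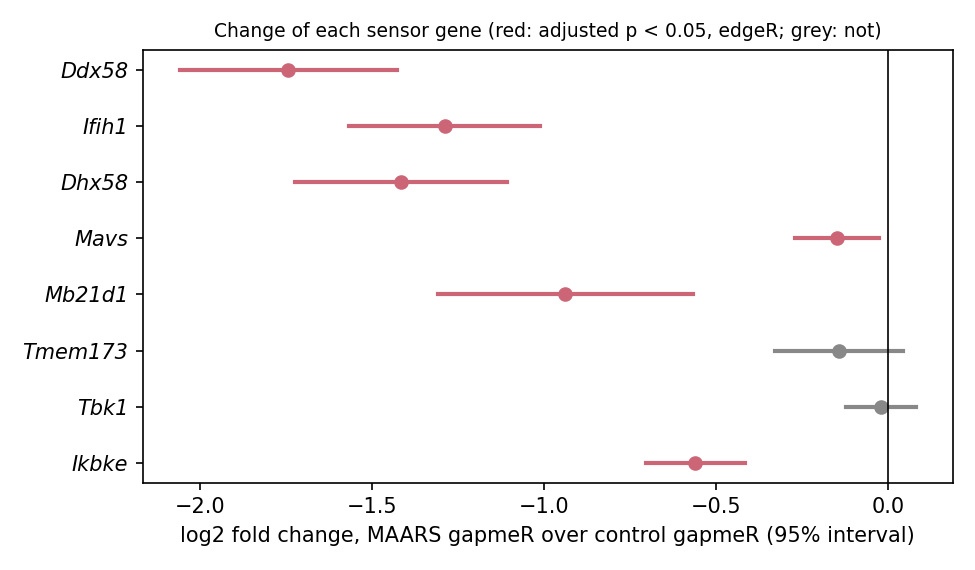
Log2 fold change of each sensor gene, MAARS gapmeR over control gapmeR, on the horizontal axis, with points for edgeR's estimates, lines for 95% intervals, red for an adjusted p under 0.05 and grey otherwise. The estimates run from -1.74 for Ddx58 to -0.02 for Tbk1, and the intervals of Tmem173 and Tbk1 cross 0.

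Among the RNA sensors, Ddx58 (chromosome 4, 40203773 to 40239828, minus strand, GRCm38) encodes RIG-I, which recognises short double-stranded RNA with a 5′ triphosphate. Control replicates 2, 5, 6 and 7 held 228, 273, 312 and 279.8 CPM of Ddx58, and MAARS gapmeR replicates 9, 11, 13 and 15 held 60.6, 92.2, 100.5 and 72.8 CPM. The highest MAARS gapmeR library was still below the lowest control library, which was replicate 2. Ddx58 fell to 0.299 of its control level, a log2 change of -1.74 ± 0.144 (SE; adjusted p = 6.89e-06, edgeR), the 147th smallest p of the genes tested. Ifih1 (chromosome 2, 62595798 to 62646255, minus strand), which encodes the long double-stranded RNA sensor MDA5, had 139, 161, 189 and 171 CPM in the control libraries in the same order and 56.2, 76.2, 80.8 and 56.7 CPM in the MAARS gapmeR libraries. Again control replicate 2 was the lowest control and lay above every MAARS gapmeR library. Its log2 change was -1.29 ± 0.127 (SE; adjusted p = 1.67e-05, edgeR). Ifih1 lies 15.6 Mb from MAARS on the same chromosome.

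Dhx58 (chromosome 11, 100694884 to 100704271, minus strand), which encodes LGP2, had 189.6, 206, 233 and 213 CPM in the control libraries and 55.3, 84.4, 99.99 and 75.8 CPM in the MAARS gapmeR libraries. The groups did not overlap, and MAARS gapmeR replicate 9 was the lowest library, as it was for Ddx58 and Ifih1. The log2 change was -1.42 ± 0.141 (SE; adjusted p = 1.8e-05, edgeR). An antisense gene, Dhx58os, covers 4.31% of the exonic bases of Dhx58, and the strand setting of the counting is not given in the sources used here. For all 3 helicase genes the coefficient of variation was larger with MAARS gapmeR than with control gapmeR. It was 22.2% against 12.7% for Ddx58, 19.0% against 12.6% for Ifih1 and 23.6% against 8.60% for Dhx58. Mb21d1 shared this (26.9% against 11.2%), while Mavs, Tmem173, Tbk1 and Ikbke had the smaller value with MAARS gapmeR. These differences in spread were not tested.

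**Figure D2:**
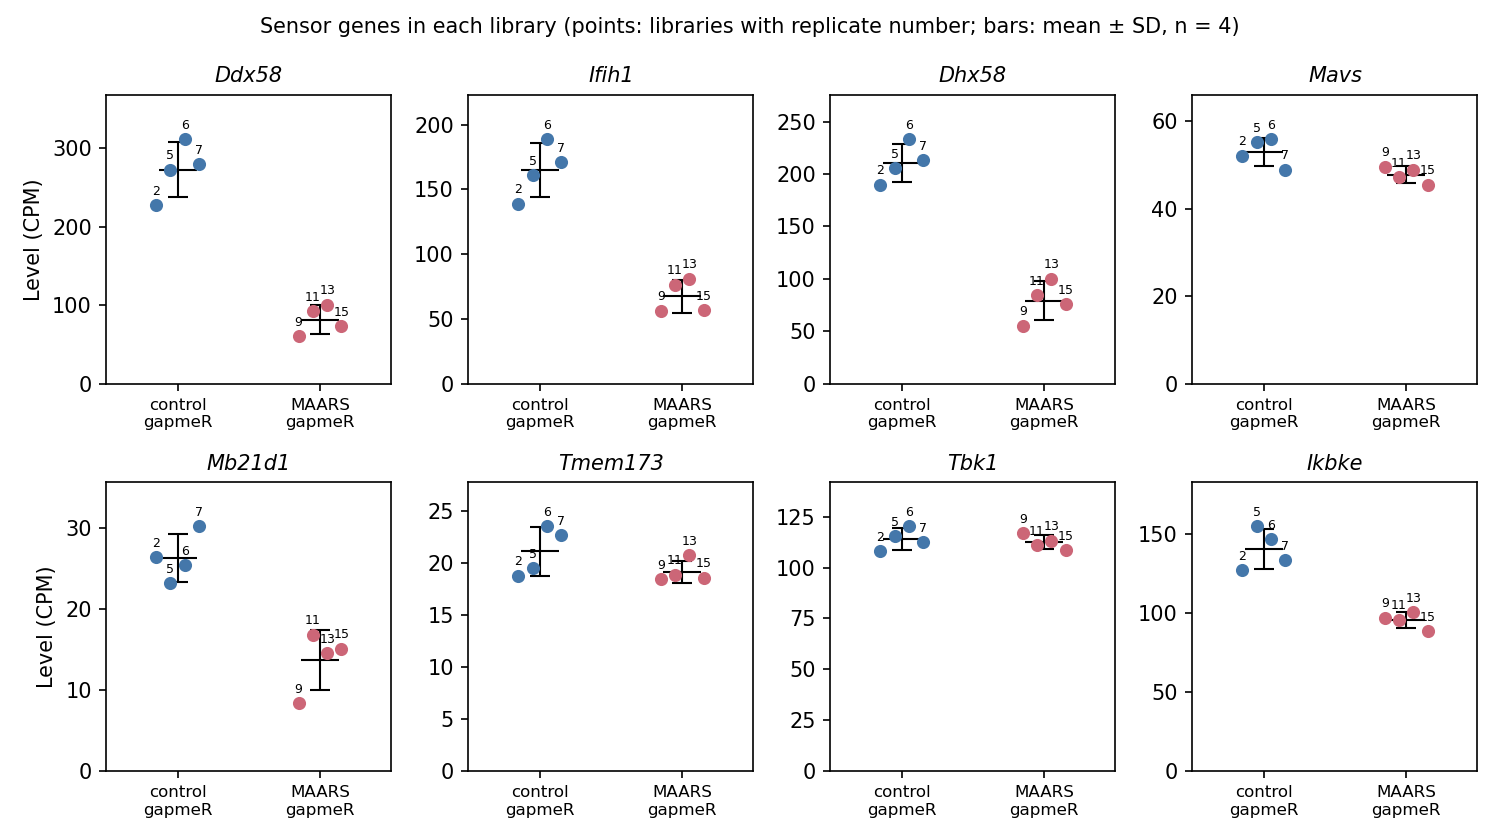
Level of each sensor gene in CPM (vertical axes from 0) in the 4 control gapmeR libraries (blue) and the 4 MAARS gapmeR libraries (red), numbered by replicate, with bars for the mean ± SD. Ddx58, Ifih1, Dhx58, Mb21d1 and Ikbke show no overlap between groups, and Mavs, Tmem173 and Tbk1 overlap.

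The 4 control libraries stood in the same order for all 3 helicase genes, replicate 2 lowest, then 5, 7 and 6. The 4 MAARS gapmeR libraries did too, replicate 9 lowest, then 15, 11 and 13. For Ifih1, however, MAARS gapmeR replicates 9 and 15 were nearly equal, at 56.2 and 56.7 CPM. Of all genes tested, 158 (1.21%) had this order in both groups, as did 138 of the 3137 genes called lower (4.40%). Among the other sensor genes only Tmem173 had it, with MAARS gapmeR replicates 9, 15 and 11 between 18.4 and 18.9 CPM, while Mavs, Mb21d1, Tbk1 and Ikbke did not. The order was noticed after the values were seen and is given as a description; the libraries share their total and scaling factor across genes.

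The promoters of Ddx58 and Ifih1, which both fell, are shown with those of Mb21d1, which also fell, and Tbk1, which was not called. These 4 were picked for display with their values known. RefSeq windows (GRCm38.p6) of 300 bases, 250 before the start of the gene to 50 after it, were given for 6 of the 8 genes, Dhx58 and Tmem173 being the others. They were searched on both strands for the core of the interferon-stimulated response element (ISRE), GAAANNGAAA, to which interferon-activated factors bind, and for the gamma-activated site, TTCNNNGAA. The ISRE core occurred in 2 of the 6 windows, those of Ddx58 and Ifih1, and in 3.44% of all 32851 windows. The gamma-activated site occurred in none of the 6, and in 8.30% of all windows. Counting the start base as 0, the match lay at 2 to 11 in Ddx58, on the strand opposite to the gene (TTTCGATTTC), and at 32 to 41 in Ifih1, on the strand of the gene (GAAACAGAAA). Capitals mark the ISRE core in the windows below, which read 5′ to 3′ along the gene's minus strand and lie at chr4:40239776-40240075, chr2:62646206-62646505, chr9:78443188-78443487 and chr10:121586745-121587044 for the 4 genes.
Ddx58: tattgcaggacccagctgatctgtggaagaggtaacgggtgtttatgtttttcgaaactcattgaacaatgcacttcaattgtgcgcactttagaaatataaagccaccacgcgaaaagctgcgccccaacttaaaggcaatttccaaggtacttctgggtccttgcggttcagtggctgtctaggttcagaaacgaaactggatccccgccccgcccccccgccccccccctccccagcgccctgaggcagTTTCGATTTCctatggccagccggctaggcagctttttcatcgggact
Ifih1: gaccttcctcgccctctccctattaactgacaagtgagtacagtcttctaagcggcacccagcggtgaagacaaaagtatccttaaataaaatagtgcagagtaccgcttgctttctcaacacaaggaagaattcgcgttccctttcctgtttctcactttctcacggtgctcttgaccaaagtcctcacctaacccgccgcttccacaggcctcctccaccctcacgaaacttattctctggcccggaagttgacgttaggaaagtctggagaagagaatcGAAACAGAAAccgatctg
Mb21d1: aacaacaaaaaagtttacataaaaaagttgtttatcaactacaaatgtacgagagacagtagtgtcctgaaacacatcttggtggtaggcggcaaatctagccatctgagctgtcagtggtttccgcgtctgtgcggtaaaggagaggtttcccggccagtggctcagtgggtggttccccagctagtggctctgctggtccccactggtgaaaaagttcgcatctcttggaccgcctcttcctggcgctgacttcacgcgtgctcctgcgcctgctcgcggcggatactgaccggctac
Tbk1: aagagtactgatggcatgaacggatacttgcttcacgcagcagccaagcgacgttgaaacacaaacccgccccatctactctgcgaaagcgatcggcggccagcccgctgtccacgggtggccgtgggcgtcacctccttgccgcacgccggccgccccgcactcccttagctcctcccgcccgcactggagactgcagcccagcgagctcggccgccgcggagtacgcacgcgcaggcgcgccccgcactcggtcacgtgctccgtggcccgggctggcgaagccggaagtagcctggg

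A match of letters is not a measured binding site, and a window without one says only that these letters are not in it. Of the genes with a match, Ddx58 and Ifih1 both fell, as given above. Of the genes whose windows had none, Mb21d1 and Ikbke fell with no overlap between groups, Mavs was called by a narrow margin and Tbk1 was not called.

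Mavs (chromosome 2, 131234063 to 131248025, plus strand) encodes the adaptor through which RIG-I and MDA5 signal. Its level was 52.1, 55.1, 55.9 and 48.9 CPM for control gapmeR (replicates 2, 5, 6 and 7) and 49.6, 47.2, 48.9 and 45.5 CPM for MAARS gapmeR (replicates 9, 11, 13 and 15). The groups overlapped, since control replicate 7 was below MAARS gapmeR replicates 9 and 13. The log2 fold change of Mavs was -0.15 ± 0.0557 (SE; adjusted p = 0.0474, edgeR), and the adjusted p was 0.0687 with DESeq2 and 0.200 with upper-quartile factors in edgeR. Leaving out control replicate 2, 5 or 6 or MAARS gapmeR replicate 11, 13 or 15 also ended the call. Within each library, the log2 ratio of Ifih1 to Mavs counts was 1.63 ± 0.182 with control gapmeR and 0.48 ± 0.269 with MAARS gapmeR (SD, n = 4). This ratio of sensor to adaptor fell by 1.15 (two-sided exact permutation test, p = 0.0286, adjusted 0.0429 over 6 ratios; 0.0286 is the smallest p that 4 against 4 libraries allow).

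In the DNA arm, Mb21d1 (chromosome 9, 78430526 to 78443237, minus strand), which encodes cGAS, had 26.5, 23.2, 25.5 and 30.3 CPM in control replicates 2, 5, 6 and 7. With MAARS gapmeR it had 8.37, 16.8, 14.6 and 15.1 CPM in replicates 9, 11, 13 and 15. The groups did not overlap, and MAARS gapmeR replicate 9 stood below the other 3 libraries of its group. Mb21d1 fell by 0.94 on the log2 scale (SE 0.169; adjusted p = 9.85e-04, edgeR), to 0.522 of its control level. Without MAARS gapmeR replicate 9 the log2 fold change of Mb21d1 was -0.77 (adjusted p = 2.08e-04, edgeR). These values rest on between 177 and 617 counts per library, and Gm8093, on the opposite strand, covers 4.87% of its exonic bases.

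Tmem173 (chromosome 18, 35733679 to 35740554, minus strand), which encodes STING, the adaptor downstream of cGAS, had 18.7, 19.5, 23.5 and 22.6 CPM in the control libraries and 18.4, 18.9, 20.7 and 18.6 CPM in the MAARS gapmeR libraries. The ranges overlapped: MAARS gapmeR replicates 9 and 15 lay just under the lowest control, replicate 2, and replicates 11 and 13 above it. Its log2 fold change was -0.14 (95% interval -0.33 to 0.05, adjusted p = 0.198, edgeR). The log2 ratio of Mb21d1 to Tmem173 counts was 0.32 ± 0.171 with control gapmeR and -0.53 ± 0.429 with MAARS gapmeR (SD, n = 4), a difference of -0.85 (exact permutation test, p = 0.0286, adjusted 0.0429). The control libraries held more Mb21d1 than Tmem173 counts and the MAARS gapmeR libraries fewer. These counts are not corrected for gene length. Divided by kb of merged exon, the mean of Tmem173 was above that of Mb21d1 in both groups: 7.70 and 6.39 CPM per kb with control gapmeR, 6.98 and 3.32 with MAARS gapmeR. Between the adaptors of the DNA and RNA arms, the log2 ratio of Tmem173 to Mavs was -1.33 ± 0.187 and -1.32 ± 0.0800 (SD, n = 4), a difference of 0.01 (exact permutation test, p = 0.886, adjusted 0.886). The pairwise differences between MAARS gapmeR and control libraries, whose range is an exact 97.1% interval for a shift, ran from -0.32 to 0.26 for this ratio.

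Of the kinase genes, Ikbke was called lower and Tbk1 was not called. Tbk1 (chromosome 10, 121546455 to 121586787, minus strand) stood at 108, 115, 120.5 and 113 CPM for control gapmeR (replicates 2, 5, 6 and 7) and at 117, 111, 113 and 109 CPM for MAARS gapmeR (replicates 9, 11, 13 and 15). Its ranges lay almost on top of each other. The log2 fold change was -0.02 (95% interval -0.12 to 0.08, adjusted p = 0.743, edgeR), and with upper-quartile factors it was 0.04. Ikbke (chromosome 1, 131254343 to 131279606, minus strand), which encodes the relative of TBK1 that is inducible in many cells, had 127, 155, 147 and 133 CPM in the control libraries and 97.1, 95.8, 100.6 and 88.5 CPM in the MAARS gapmeR libraries. Even the highest MAARS gapmeR library, replicate 13, was under the lowest control, replicate 2. Ikbke fell by 0.56 on the log2 scale (SE 0.0660; adjusted p = 5.62e-05, edgeR), to 0.679 of its control level. The log2 ratio of Ikbke to Tbk1 counts was 0.30 ± 0.0883 with control gapmeR and -0.24 ± 0.0562 with MAARS gapmeR (SD, n = 4), a difference of -0.54 (exact permutation test, p = 0.0286, adjusted 0.0429).

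The helicase genes were also compared with one another. The log2 ratio of Ifih1 to Ddx58 counts was -0.73 ± 0.0234 with control gapmeR and -0.27 ± 0.110 with MAARS gapmeR (SD, n = 4), a difference of 0.46 (exact permutation test, p = 0.0286, adjusted 0.0429), Ddx58 having fallen farther than Ifih1. The ratio of Dhx58 to Ifih1 was 0.36 ± 0.0649 and 0.21 ± 0.193 (SD, n = 4), and its difference of -0.14 did not pass the test (exact permutation test, p = 0.229, adjusted 0.274). Its exact 97.1% interval ran from -0.47 to 0.11, so a difference in either direction was within it. The 4 ratios that passed lost the adjusted call without control replicate 2 or without control replicate 7: the adjusted p was then 0.0857 for Mb21d1 to Tmem173 and 0.0571 for each of the other 3 (exact permutation test). In these fits only Mb21d1 to Tmem173 had a larger unadjusted p, 0.0571. For the other 3 the unadjusted p stayed at 0.0286, the smallest that 3 against 4 libraries allow. Their adjusted p rose because the adjustment takes in all 6 ratios, Mb21d1 to Tmem173 among them. Each of the 4 ratios kept the adjusted call in the 6 fits without another library. A ratio of counts within a library does not depend on library size or scaling factors. It does depend on gene length, so its sign does not rank the levels of a pair.

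**Figure D3:**
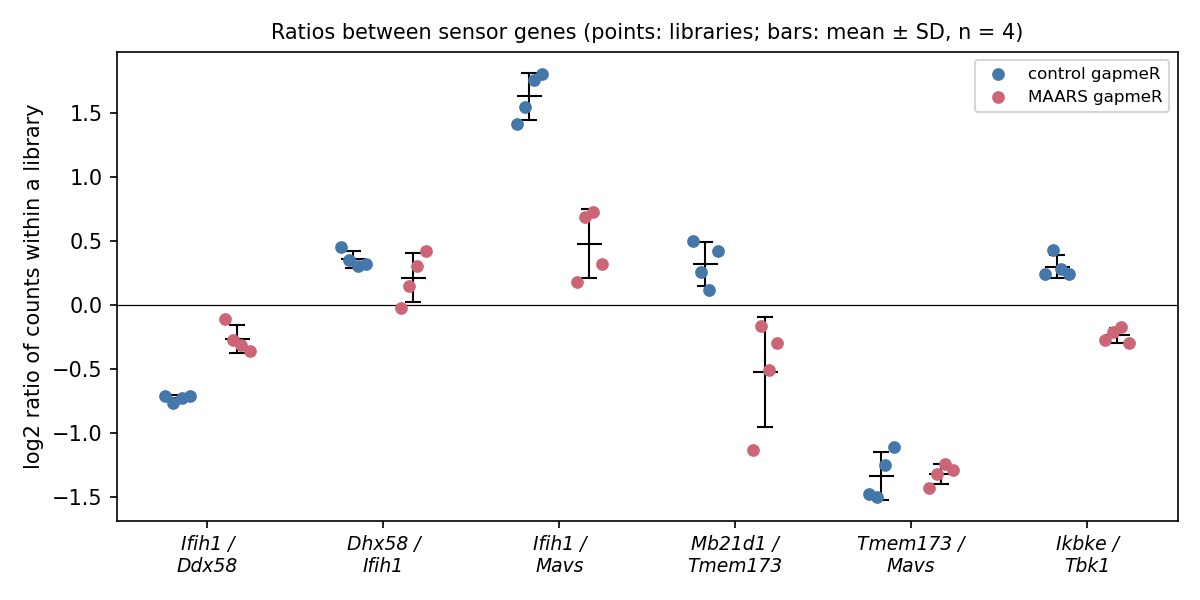
Log2 ratio of the counts of pairs of sensor genes within each library (vertical axis), with points for the 4 control gapmeR (blue) and 4 MAARS gapmeR (red) libraries and bars for the mean ± SD. The groups separate for Ifih1 to Ddx58, Ifih1 to Mavs, Mb21d1 to Tmem173 and Ikbke to Tbk1, and overlap for Dhx58 to Ifih1 and Tmem173 to Mavs.

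To compare levels between genes, CPM were divided by the length of each gene's merged exons. With control gapmeR, Dhx58 was the most abundant of the 8 at 64.3 ± 5.53 CPM per kb (SD, n = 4), followed by Ddx58 (38.8), Tbk1 (29.2), Ifih1 (20.2), Mavs (15.8), Ikbke (15.6), Tmem173 (7.70) and Mb21d1 (6.39). Neighbours in this order did not overlap in their libraries' values, except Mavs with Ikbke and Tmem173 with Mb21d1. With MAARS gapmeR, Tbk1 led at 28.8 ± 0.906 CPM per kb (SD, n = 4), then came Dhx58 (24.1), Mavs (14.3), Ddx58 (11.6), Ikbke (10.6), Ifih1 (8.26), Tmem173 (6.98) and Mb21d1 (3.32). In this group the values overlapped between neighbours, except between Dhx58 and Mavs and between Tmem173 and Mb21d1. Among all genes tested, the level per kb of Ddx58 stood at percentile 89.9 with control gapmeR and 70.5 with MAARS gapmeR, and that of Tbk1 at 86.2 and 86.8. Merged exons of all annotated transcripts can be longer than the transcripts these cells use, which lowers the value per kb.

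**Figure D4:**
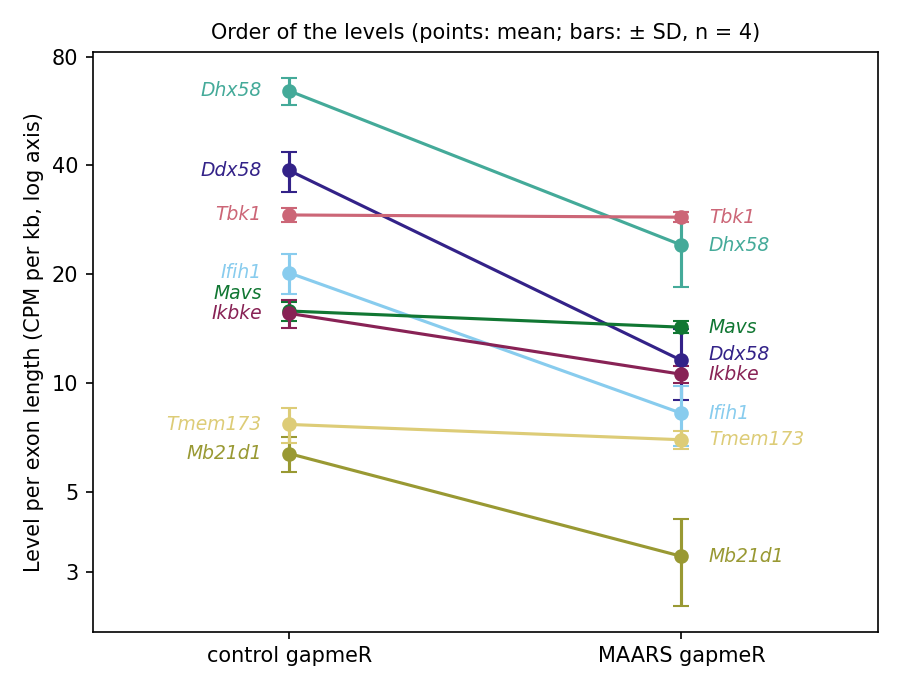
Mean level per kilobase of merged exon (CPM per kb, log axis) of each sensor gene with control gapmeR and MAARS gapmeR, with bars for ± SD of 4 libraries. Tbk1, Mavs and Tmem173 run almost level, and the lines of Dhx58, Ddx58 and Ifih1 cross those of Tbk1, Mavs or Ikbke on the way down.

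The other genes of the pathway were described by 7 lists holding 75 genes, of which 66 passed the filter on low counts; 27 were called lower and 9 higher, where 24.0% and 21.3% of all genes tested were, with a median log2 fold change of -0.08 against 0.01 over all genes tested. Among 9 regulators of RIG-I and MDA5, 3 fell and 1 rose. The ubiquitin ligase gene Trim25, whose product activates RIG-I, fell by 0.45, Zc3hav1, which encodes the RNA-binding antiviral protein ZAP, by 0.40, and the deubiquitinase gene Cyld by 0.25 on the log2 scale (adjusted p = 6.52e-05, 7.18e-05 and 0.00200, edgeR). Among 13 genes of the MAVS signalling complex, 6 fell and 1 rose, and with upper-quartile factors 3 rose, as did 2 without control replicate 5. The adaptor gene Traf3 and Tomm70a, which encodes a mitochondrial import receptor that binds MAVS, fell by 0.37 and 0.31, and Rnf5, a ubiquitin ligase gene with 24.7% of its exonic bases overlapped on the opposite strand, rose by 0.33 (adjusted p = 6.73e-04, 3.14e-04 and 0.00106, edgeR).

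Among 14 regulators of cGAS and STING, 3 fell and 3 rose, shares near those over all genes tested (24.0% lower and 21.3% higher). The count of higher genes depended on the scaling and libraries: it was 5 with RLE factors or DESeq2, 6 with upper-quartile factors and 1 without control replicate 7. Among the 3 that rose, 1 has 56.6% of its exonic bases overlapped by another gene on the same strand and 17.3% on the opposite strand. Rhbdf2, which encodes the STING trafficking protein iRhom2, fell by 0.52 (adjusted p = 8.77e-05, edgeR), Stim1 fell by 0.18 (0.00855), and Enpp1, which encodes the enzyme that degrades cGAMP, rose by 0.27 (0.00369). The call on Stim1 was lost with upper-quartile factors. Of 8 partners of TBK1 and the IKK complex, 4 fell and 4 did not pass. Tank, the adaptor of TBK1 and IKKε, went from 80.9 ± 9.56 to 51.3 ± 4.42 CPM (SD, n = 4), a log2 fold change of -0.66 (adjusted p = 1.14e-04, edgeR), while Azi2 and Optn, whose products also bind TBK1, fell by 0.31 and 0.28 (adjusted p = 0.00126 and 0.00173, edgeR).

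Of 7 transcription factor genes acting below the kinases, 4 fell and 1 rose, and with upper-quartile factors 2 fell. Over all genes tested, 24.0% were called lower and 21.3% higher. Irf7, the inducible interferon regulatory factor, stood at 1047, 1200, 1603 and 1524 CPM for control gapmeR (replicates 2, 5, 6 and 7) and at 59.3, 177, 238 and 109.8 CPM for MAARS gapmeR (replicates 9, 11, 13 and 15). Its log2 change of -3.20 ± 0.346 (SE; adjusted p = 3.05e-05, edgeR) was larger in size than that of any of the 8 sensor genes. Irf5, with 14.1% of its exonic bases overlapped on the opposite strand, fell by 0.70 and Jun by 0.18 (adjusted p = 8.99e-06 and 0.0189, edgeR). The call on Jun, 7.28% of whose exonic bases lie under the antisense gene Junos, was lost with upper-quartile factors. Irf3, the constitutive factor, is named after its values were seen as the 1 gene of this list that rose, by 0.16 (adjusted p = 0.0334, edgeR); the call was lost with no filter on low counts and in 7 of the 8 fits that left out a library, all but the one without MAARS gapmeR replicate 13.

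Of 15 other nucleic acid sensors and related helicases, 7 fell and 3 rose, where 24.0% and 21.3% of all genes tested did. Zbp1, which encodes the Z-form nucleic acid sensor ZBP1, went from 239.7 ± 42.0 to 26.1 ± 10.7 CPM (SD, n = 4), a log2 fold change of -3.20 (adjusted p = 5.27e-06, edgeR). Ifi204, one of a family of similar genes between which reads may have been divided, showed a log2 change of -1.67, Ddx60, a helicase gene, of -1.58, and Eif2ak2, which encodes the double-stranded RNA-activated kinase PKR, of -0.99 (adjusted p = 2.52e-05, 1.05e-05 and 1.03e-05, edgeR). Of the 19 pathway genes named by rule, 4 (Zbp1, Ifi204, Ddx60 and Irf7) had the same order of libraries in both groups as Ddx58, and the others did not. At the end of the pathway, 9 type I and III interferon genes were looked up and none passed the filter on low counts. Ifnb1 had 2, 0, 0 and 1 counts for control gapmeR (replicates 2, 5, 6 and 7) and 2, 0, 0 and 0 for MAARS gapmeR (replicates 9, 11, 13 and 15), and 7 of the 9 genes had 0 counts in every library. A count of 0 allows a level of up to 3 counts, between 0.119 and 0.162 CPM in these libraries, for counting error alone. The interferon alpha genes are near-identical copies, and how reads that map to several genes were counted is not given in the sources used here, so a 0 for them is uncertain.

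**Figure D5:**
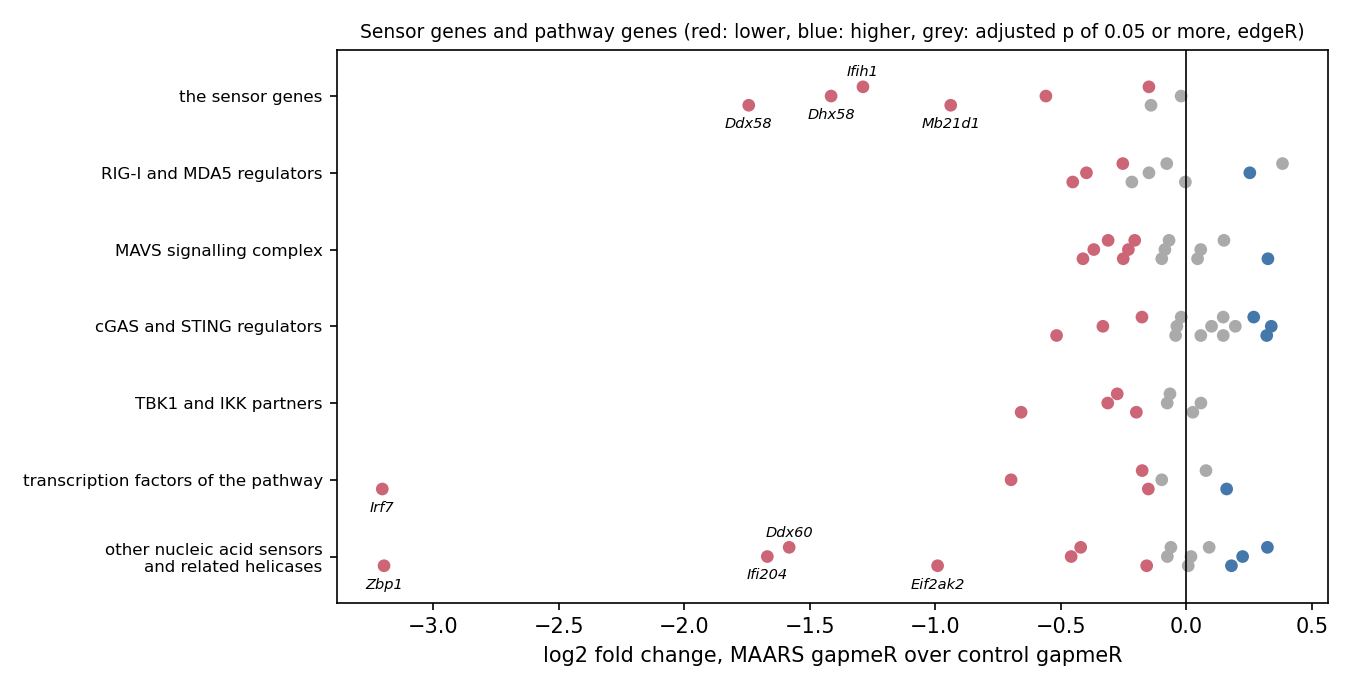
Log2 fold change (horizontal axis, MAARS gapmeR over control gapmeR) of the sensor genes and of the tested genes of 6 pathway lists, 1 point per gene, red for lower and blue for higher at an adjusted p under 0.05 (edgeR), with names from an absolute value of 0.9. Ddx58, Dhx58, Ifih1 and Mb21d1 lie left of -0.9, as do Irf7, Zbp1, Ifi204, Ddx60 and Eif2ak2 among the listed genes.

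The gene tested whose profile over the 8 libraries was nearest to each called sensor gene was found by the root mean square difference in log2 CPM, each gene centred on its control mean. For Ddx58 it was Znfx1 (difference 0.0398, log2 fold change -1.72), for Ifih1 Nlrc5 (0.0620, -1.29) and for Dhx58 Trim30a (0.0716, -1.44). For Ikbke it was Evi2a (0.0464, -0.55), for Mb21d1 Rhov (0.101, -0.95) and for Mavs Zdhhc9 (0.0188, -0.17). The measure takes in the difference between the groups, so these are genes with a like fold change.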

How the data were processed

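RNA-Seq of ribodepleted total RNA, read as 2 × 100 nt pairs, was available for 4 control gapmeR and 4 MAARS gapmeR BMDM libraries, grouped by their labels. The authors aligned trimmed reads to the mouse genome with Ensembl gene models and assigned them to genes; the submitters' processing notes name Trimmomatic 0.36, STAR 2.5.2b, featureCounts, Subread 1.5.2 and GRCm38. The deposited values are raw counts, with no normalization. Names, positions and exon lengths came from GENCODE M21 (GRCm38), which held 99.3% of the genes.

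From the counts, low genes were removed by filterByExpr (10 counts in enough libraries, 15 in total), the rest scaled with TMM factors and compared with edgeR 4.0.16 (glmQLFit, glmQLFTest; R 4.3.3), and p-values were adjusted over all 13051 by Benjamini-Hochberg. Standard errors are the absolute log2 fold change over the square root of F. Ratios between members used log2 counts with 0.5 added. Totals of 19287279 to 24541205 counts set the precision. Replicates of a group differed by more than sampling noise (chi-square per gene 3.19 to 10.2). The alternatives were RLE and upper-quartile factors, DESeq2 1.42.0, limma-voom (3.58.1), edgeR's robust option, the low-count filter omitted or replaced by a mean count of 10, thinning to the smallest total, each library left out and, for ratios, 5 added. The tests were tested first on simulated data, with 100 genes changed by 0.5 and 100 by 1 in log2. There edgeR called 74% and 89% of these, and 5.23% of its calls were unchanged genes, against 12% for DESeq2 and 5.33% for limma-voom. Far fewer genes were changed there than were called here, so these rates need not hold for these libraries.

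The members and gene lists were chosen with earlier results of these data known. Named genes are the 8 members, MAARS, in each list the 3 smallest p among called genes and any called gene that changed by 1 or more in log2, and the nearest profile to each called member; cell type markers and Irf3 are named besides.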

Additional observations from a re-analysis of the deposited data

How the results depend on the processing

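Ddx58, Ifih1, Dhx58, Mb21d1 and Ikbke stayed lower with an adjusted p under 0.05 in all 8 alternatives and all 8 fits without a library, and so did MAARS. Over the fits that left out a library, their log2 fold changes ran from -1.86 to -1.63, -1.39 to -1.21, -1.55 to -1.28, -1.05 to -0.77 and -0.60 to -0.51. Mavs was no longer called with RLE factors (-0.14), upper-quartile factors (-0.086), DESeq2 (-0.14) or no filter (-0.15), and between -0.19 and -0.12 when a library was left out, 6 of these 8 fits losing the call; its adjusted p lay between 0.0199 and 0.200 over the alternatives and these fits. Tbk1, not called in any, turned direction with upper-quartile factors (0.042) and without control replicate 6, its range without a library being -0.044 to 0.0019. The members called lower numbered 5 or 6 in every setting. The differences in ratio kept their side of the threshold with 5 added to each count and with thinned counts; over the fits without a library, Ifih1 to Ddx58 ran from 0.41 to 0.49, Ifih1 to Mavs from -1.23 to -1.05, Mb21d1 to Tmem173 from -0.97 to -0.65 and Ikbke to Tbk1 from -0.56 to -0.49, each losing the adjusted call without control replicate 2 (0.47, -1.22, -0.79 and -0.56) or 7 (0.47, -1.09, -0.82 and -0.55). In those fits without control replicate 2 or 7 the unadjusted p stayed at 0.0286, except for Mb21d1 to Tmem173, at 0.0571 (exact permutation test). Tmem173 to Mavs, not called in any, ran from -0.044 to 0.087 and turned direction without control replicate 2 or 5 or MAARS gapmeR replicate 13. Of 32 other genes named with a test, 26 kept their call, or stayed uncalled, in all 16 settings. Stim1, Jun, Irf3 and Zdhhc9 lost their call in at least 1, Col1a1 was called higher with no filter and without control replicate 7, and Col1a2 without control replicate 7; none of the 32 changed direction. Upper-quartile factors shifted the log2 fold changes of all genes by a median of 0.06. The interferon genes had too few counts to be tested. No paired analysis was possible because the groups share no replicate number in the labels. Apart from the adjusted p of the ratios, the cause of these differences between settings was not tested.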
